A study of Homo sapiens with 2 samples.

Results

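The genomic windows around 6 microRNA loci of epithelial cells were examined for peaks of active YAP. The named loci are MIR21 with the gene VMP1 that it overlaps, MIR205HG, MIR100HG, MIR29A, MIR130A and MIR22HG. A peak belonged to a locus if its summit lay inside a fixed hg19 window around it. The rule used no peak height, but the windows were chosen with earlier results of this list known. Of the 9393 peaks in the list, 11 met this rule, and they fell in 5 of the 6 windows. Sequencing covered 1 library from chromatin immunoprecipitation (ChIP-seq) and 1 of input DNA, with no replicate of either. The ChIP library came from MCF10A cells, a human mammary epithelial line, that expressed Flag-tagged YAP-5SA, and chromatin was collected on Flag-M2 beads. The input library is labelled as DNA of MCF10A cells taken without an antibody, and its reads were not analysed here. Both were grown with horse serum, EGF, insulin, hydrocortisone and cholera toxin. The labels describe the line both as non-transformed and as a breast cancer line. Neither the promoter of the transgene nor the number of clones is stated in the labels. The file gives peaks and no expression values, so the cell type could not be checked against markers.

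YAP is a transcriptional co-activator that the Hippo pathway restrains by phosphorylation, and it reaches DNA mainly through the TEAD transcription factors. In YAP-5SA the serines phosphorylated by the LATS kinases are changed to alanine, which keeps the protein in the nucleus and active. MicroRNAs are short RNAs, cut from hairpin precursors, that repress messenger RNAs through pairing of their seed, the bases 2 to 8. Many are encoded inside a longer host transcript, so a regulatory element of the host can also act on the microRNA. Among the microRNAs here, miR-130a has been described as a product of YAP activity that represses the YAP antagonist VGLL4.

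Mature microRNAs of the 5 windows with peaks are shown because they are products encoded at the loci. MIR10526, which also overlaps MIR100HG, is left out. The mature let-7a-5p is encoded by 3 genes, and miR-125b-5p and miR-29b-3p by 2 genes each, so these are not particular to the loci. They are printed from RefSeq (GRCh38.p14), 5′ to 3′, with the seed in capitals. The arm shown is the one better known as active.
miR-21-5p of MIR21: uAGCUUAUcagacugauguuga
miR-205-5p of MIR205: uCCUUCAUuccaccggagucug
miR-100-5p of MIR100: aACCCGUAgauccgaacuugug
let-7a-5p of MIRLET7A2: uGAGGUAGuagguuguauaguu
miR-125b-5p of MIR125B1: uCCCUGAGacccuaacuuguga
miR-29a-3p of MIR29A: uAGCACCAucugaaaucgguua
miR-29b-3p of MIR29B1: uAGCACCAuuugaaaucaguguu
miR-22-3p of MIR22: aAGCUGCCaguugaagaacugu

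These 8 microRNAs carry 7 distinct seeds. The pair miR-29a-3p and miR-29b-3p have the same seed and are identical at 18 of the first 22 bases, and miR-29c-3p, from another locus, shares that seed. The MIR100HG transcript carries MIR100, MIRLET7A2 and MIR125B1, whose products have 3 unrelated seeds. Among the 2370 distinct mature human microRNAs in the table, the let-7a-5p seed was shared by 10 others, the miR-100-5p and miR-125b-5p seeds by 2 others each, and the miR-21-5p seed by 1 other, miR-590-5p. No other microRNA in the table had the seed of miR-205-5p or of miR-22-3p.

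The 6 windows together spanned 1.02 Mb and held 10.8 peaks per Mb (95% exact Poisson interval 5.38 to 19.3, counting error only), against 3.45 per Mb over the whole list, a ratio of 3.12. The peaks were unevenly divided. The windows of MIR205HG, MIR100HG and MIR29A had 3 peaks each, those of MIR22HG and MIR21 with VMP1 had 1 each, and that of MIR130A had none. Because 9 of the 11 peaks lay in 3 windows, the Poisson interval, which treats peaks as independent, may be too narrow. The windows were drawn around genes and chosen with earlier results of this list known, whereas the density over the whole list includes long stretches without genes. The ratio is therefore a description of these windows and was not tested.

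The score at the summit deposited by the authors, a whole number with no stated unit, is called the height. The heights of the 11 peaks were 15, 16, 18, 24, 26, 26, 27, 29, 30, 32 and 62. Their median was 26, against 24 over the 9393 peaks, with a lowest to highest range of 15 to 62 against 9 to 100. Of the 11 peaks, 7 were higher than the median of the list, 1 equalled it and 3 were lower, where 45.5% of all peaks are higher than the median. The 7 of 11 make 63.6% (95% exact binomial interval 30.8 to 89.1, counting error only). The interval treats peaks as independent, although 9 of the 11 lay in 3 windows, so the difference from the list was not tested. A single peak, at MIR22HG, reached a height of 40, which is 9.09% of the members (exact interval 0.230 to 41.3) against 8.67% of all peaks. At a height of 30 or more there were 3 of 11, or 27.3%, against 26.6% of all peaks. By window, the median height ran from 18 at MIR29A to 62 at MIR22HG.

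**Figure D1:**
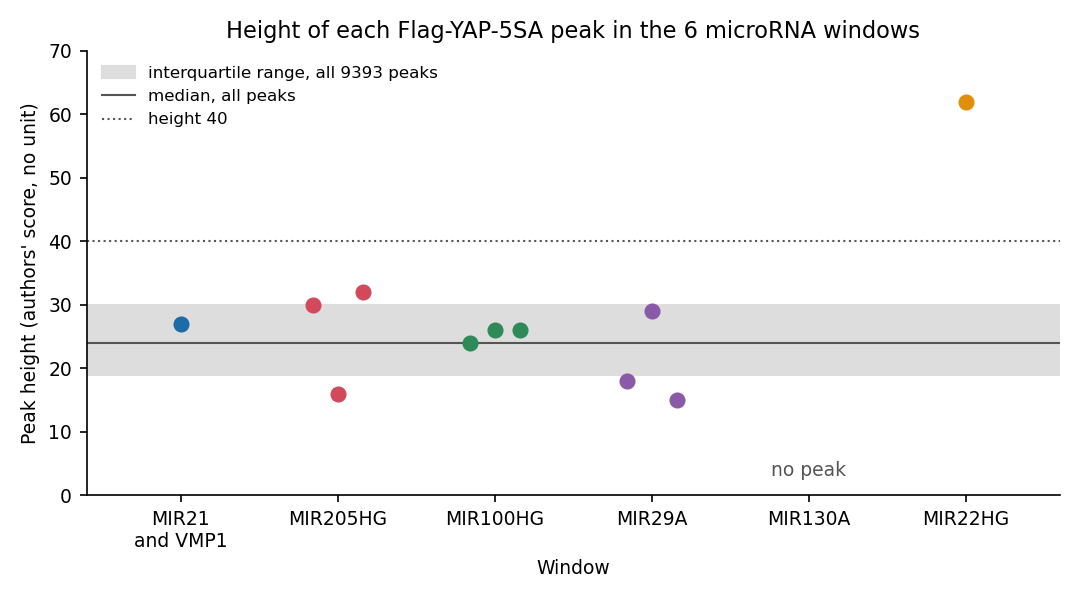
Height of each of the 11 peaks (vertical axis, the authors' score, no unit) by window, in order of position within a window; the grey band is the interquartile range of all 9393 peaks, 19 to 30, the solid line their median of 24 and the dotted line a height of 40. The MIR22HG peak, at 62, stands above the other 10, which lie between 15 and 32.

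MIR22HG is the host transcript of miR-22, a microRNA known as a regulator of TET enzymes. Its window, on chromosome 17 from 1.57 to 1.67 Mb, held 1 peak, from 1617608 to 1618344, with its summit at 1617984 and a width of 737 bp. The peak had a height of 62, which is 2.58 times the median of the list and was reached by 69 of 9393 peaks (0.735%), this one included. On chromosome 17 it was 1 of 2 peaks that tall, among 293 with a median height of 23. It lay 2.02 kb before the middle of its window.

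The MIR22HG peak was also isolated. The nearest summit before it was 216 kb away and the nearest after it 1160 kb away. A nearest summit at least as far off was found for 18.2% of all peaks, and for 10 of the 69 peaks as tall as this one. Those 69 had a median distance of 39.9 kb to their nearest summit and a median width of 762 bp. The 1711 peaks at least as isolated had a median height of 23. In the RefSeq gene order MIR22HG sits between TLCD2 and WDR81, both protein-coding, and MIR22 overlaps it. A window of 100 kb with at least 1 peak is common: 22.5% of all 100 kb tiles of the genome, counted from the first base of each chromosome, held one.

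MIR205HG is the host of miR-205, which is abundant in basal epithelial cells and is known for repressing ZEB1 and ZEB2, inducers of epithelial-mesenchymal transition. The window on chromosome 1 from 209.50 to 209.66 Mb held 3 peaks, or 18.8 per Mb against 4.50 per Mb over the chromosome. The first ran from 209540603 to 209541120 with a height of 30. The second, from 209549013 to 209549722, had a height of 16, which 92.1% of all peaks reached. The third, from 209561086 to 209561798, had a height of 32, reached by 20.8% of all peaks. A low peak thus stood between a pair of taller ones, and the median height on chromosome 1 was 25.

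The 3 MIR205HG summits were 8.66 and 11.9 kb apart and lay in the first part of the window, from 39.2 to 18.6 kb before its middle. Joined at gaps of at most 12500 bp, their intervals formed a single group of 21.2 kb, the only such group at the 6 loci. It held 3 of the 11 members, while 23.1% of all peaks were in groups of at least 2. The list had 964 of these groups, and 189 of them had 3 or more intervals, with 6.60% of all peaks in them. No other window had summits within 10 kb of each other: 2 of 11 members (18.2%) had such a neighbour, against 19.5% of all peaks. Within 5 kb no member had a neighbour (12.9% of all peaks), and joining at 5 kb left no member in a group (13.7%). Within 25 kb 45.5% of members had a neighbour (33.5%), and joining at 25 kb put 5 members in groups (33.9%). Tiles of 160 kb, the length of this window, held 3 or more peaks in 4.03% of all cases, and in 12.6% of the tiles with any peak. The tiles include stretches without genes, whereas the windows were drawn around genes and chosen with earlier results known. The tile shares of this and the other windows are therefore descriptions and were not tested. MIR205HG has no protein-coding gene directly beside it in the RefSeq order. The nearest coding genes by order are PLXNA2, a semaphorin receptor, and CAMK1G, a calmodulin-dependent kinase, with other non-coding genes between.

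MIR100HG encodes miR-100, known as a repressor of mTOR, together with let-7a-2, of a family that represses RAS and HMGA2, and miR-125b-1. The window on chromosome 11 from 121.91 to 122.13 Mb held 3 peaks of nearly the same height. They ran from 122011076 to 122011694 with a height of 24, from 122033931 to 122034625 with a height of 26 and from 122059925 to 122060285 with a height of 26. Their heights spanned 2 units, from the chromosome's median of 24 upward, the smallest spread of any window with 3 peaks. Their widths differed more, at 619, 695 and 361 bp, and 98.1% of all peaks were at least as wide as the last.

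Summits at MIR100HG followed each other at 22.9 and 25.8 kb, so the 3 peaks covered a stretch of 49.2 kb. The density was 13.6 per Mb, against 3.51 per Mb over chromosome 11. Of all 220 kb tiles, 6.82% held 3 or more peaks, as did 17.1% of those with any peak. A pair of peaks lay just outside the window. Their summits were 1.20 and 0.560 kb before its first base, with heights of 20 and 56, and their intervals were separated by 159 bp. The taller of the pair, from 121909252 to 121909834, was higher than every peak inside this window, and 1.53% of all peaks were as tall. Whether the window holds the whole of the MIR100HG transcript in hg19 was not examined. In the RefSeq order, BLID and MIR10526 also overlap MIR100HG, and the nearest coding genes that do not overlap it are SORL1 and UBASH3B.

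MIR29A and MIR29B1 are neighbours, next to the long non-coding gene LINC-PINT, and their products are known for repressing collagens and other matrix genes. The window on chromosome 7 from 130.46 to 130.66 Mb held 3 peaks of uneven height. The first, from 130538203 to 130538893, had a height of 18 and the last, from 130597736 to 130598606, a height of 15, which 94.8% of all peaks reached. Between them, the peak from 130571756 to 130572410 had a height of 29. Only this middle peak was higher than the chromosome's median of 23.

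Spacing at MIR29A was wide, with 33.5 and 26.0 kb between successive summits and 60.4 kb from the first interval to the last. The peak of height 15 was the widest member, at 871 bp, a width that 9.82% of all peaks reached. It was also among the least centred: its summit lay 123 bp before the middle of the interval, against a median of 19 bp from the middle over the members and 42.5 bp over the list. The second MIR205HG peak had a similar offset, 120.5 bp after the middle. Most summits lie on multiples of 16 bp, which limits what such offsets resolve. The density was 15.0 per Mb, against 2.93 per Mb over chromosome 7. Tiles of 200 kb held 3 or more peaks in 5.77% of all cases and in 15.4% of those with any peak. A further pair of peaks, of heights 27 and 21, lay 12.1 and 41.1 kb beyond the window. The first of this pair was 74.0 kb from the last summit inside, farther than the summits inside were from each other. The nearest coding genes in the RefSeq order are KLF14 and MKLN1.

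MIR21 overlaps VMP1, which encodes a vacuole membrane protein needed for autophagy, and miR-21 is known as an oncogenic microRNA that represses PDCD4. The window on chromosome 17 from 57.73 to 57.97 Mb held 1 peak, from 57910183 to 57910573, with its summit at 57910368. Its height was 27, against a chromosome median of 23, and 36.8% of all peaks were as tall. At 391 bp it was narrow, and 96.3% of all peaks were at least as wide. The nearest summits were 327 kb before and 250 kb after it, and 15.1% of all peaks had a nearest summit at least as far off. The peak lay 60.4 kb after the middle of the window. The density was 4.17 per Mb, against 3.85 per Mb over the chromosome, but it rested on 1 peak. It was 2.94 per Mb with the window widened by 50 kb and 5.00 per Mb with it narrowed by 20 kb. Of all 240 kb tiles, 42.5% had at least 1 peak. In the RefSeq order VMP1 lies between PTRH2 and TUBD1.

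MIR130A had no peak in its window on chromosome 11 from 57.36 to 57.46 Mb. The nearest summits were 185 kb before the window, with a height of 30, and 83.9 kb after it, with a height of 21. The stretch between them, 369 kb without a peak, was matched by many others: 2331 of 9370 gaps between successive summits (24.9%) were as long or longer. A tile of 100 kb without a peak was found in 77.5% of cases. The caller's threshold and the read depth are not known, so the absence of a peak does not show that YAP-5SA was absent there. MIR130A overlaps MIR130AHG and lies between SERPING1 and YPEL4 in the RefSeq order.

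**Figure D2:**
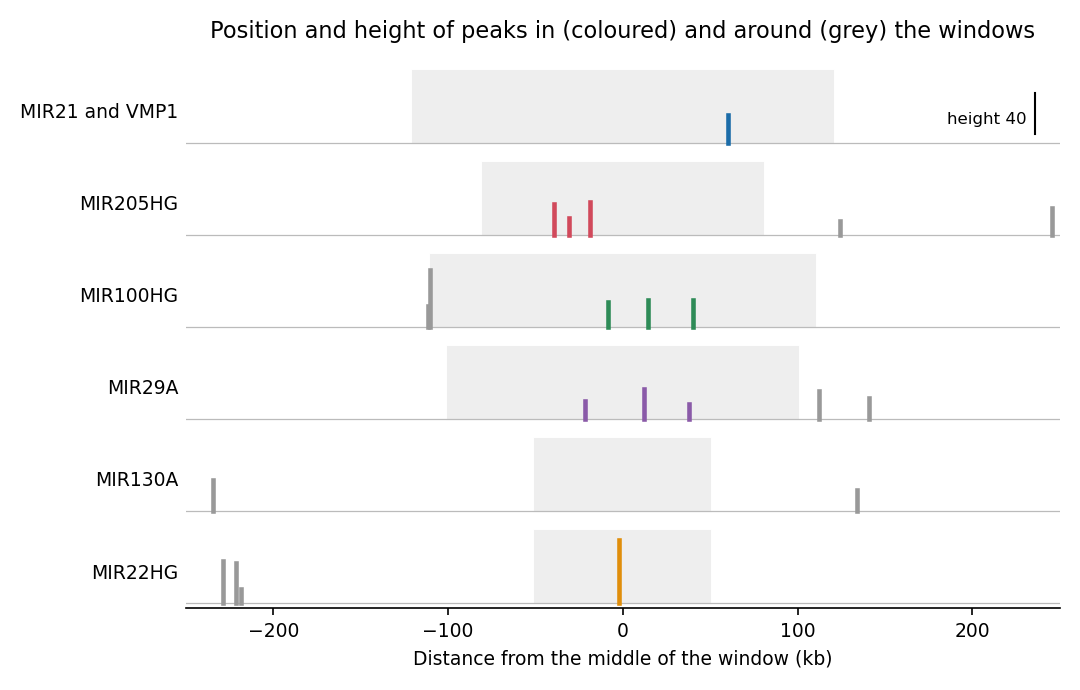
Summits within 250 kb of the middle of each window (horizontal axis, kb), drawn as bars whose length is the height of the peak, with a bar of height 40 for scale; coloured bars are the 11 members, grey bars lie outside, and the shaded boxes are the windows. Rows of 3 peaks are seen at MIR205HG, MIR100HG and MIR29A, with a taller peak of height 56 at the edge of the MIR100HG window and none in the MIR130A window.

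Width and position were compared across the members as well. Widths ran from 361 to 871 bp with a median of 691 bp, against 215 to 2669 bp and a median of 611 bp over the list, and 8 of the 11 were wider than that median. The widest member had the lowest height, the narrowest had a height of 26, and the tallest was 737 bp wide. The median distance to the nearest summit was 25.8 kb over the members and 55.8 kb over the list. By this measure the members fell into 3 kinds, namely the close group of MIR205HG, the rows of MIR100HG and MIR29A at 22.9 to 33.5 kb, and the isolated single peaks of MIR22HG and MIR21 with VMP1, at 216 and 250 kb.

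**Figure D3:**
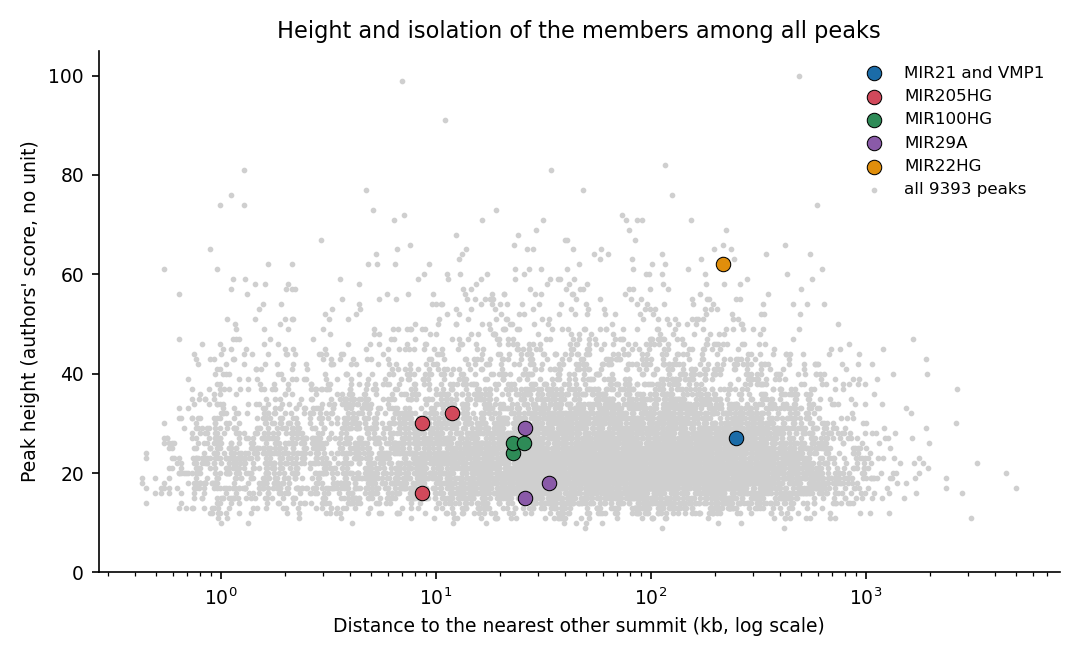
Height (vertical axis, the authors' score, no unit) against distance to the nearest other summit (horizontal axis, kb, log scale) for the 11 members, coloured by locus, and for all 9393 peaks in grey. The MIR22HG peak has a height of 62 and a distance of 216 kb. Of the 69 peaks at least that tall, 10 were at least as isolated, this one included, against 18.2% of all peaks. The peaks of the other loci have heights of 15 to 32, and that of MIR21 with VMP1 is more isolated, at 250 kb.

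No peak was assigned to an exon, an intron or a promoter, because a gene annotation of hg19 was not used here and RefSeq coordinates of GRCh38 were not mixed with it. A peak in a window may therefore belong to a neighbouring gene. With 1 library there was no test between conditions, and no value has a replicate check. DNA copy number was not corrected. Heights in single windows are set beside the median of their chromosome, and some are also ranked within the whole list. Pooled heights are set beside the whole list. Neither comparison corrects for copy number.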

How the data were processed

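Per the submitters' processing notes, the tools were BWA 0.6.1 and MACS, with hg19 as the build. Which MACS version and threshold were used, how duplicates were treated and whether the input served as control is not given in the sources used here. By its headers, the deposited file has a summit track, with the authors' score at each summit (the height), and an interval track. This score has no stated unit, so it served for description and ranking inside the list. Both tracks were joined by order, and every summit lay inside its interval as deposited. Interval starts were made 1-based, while summit positions were kept as written. Of all summits, 99.3%, including all 11 members, lie on multiples of 16 bp.

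A peak was a member if its summit lay in 1 of 6 windows. The members and lists were chosen with earlier results of these data known. Every member is described. Genes named are the 7 in the rule, the microRNAs they encode and their neighbours. Depth is unknown, since read counts are absent from the file. Peak density of a chromosome used the distance from first to last summit less the longest peak-free stretch. Tiles were consecutive stretches of fixed length from the first base to the last summit of each chromosome. Exact Poisson and exact binomial (Clopper-Pearson) intervals at the 95% level cover counting error only and treat peaks as independent. Joining and counting were tested on simulated peaks. Alternatives were other window bounds, only peaks higher than the median, overlap of at least 1 bp, full chromosome spans, merging under 200 bp, other distances and leaving out each window. MicroRNA sequences and gene order are from RefSeq GRCh38.p14. The tools were pandas 2.3.3, numpy 2.4.6, scipy 1.17.1 and matplotlib 3.10.9 under Python 3.11.15.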

Additional observations from a re-analysis of the deposited data

How the results depend on the processing

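No paired analysis was possible because each kind of library was made once, and no replicate could be left out. Restricted to peaks higher than the median of the list, 7 of the 11 peaks remained, at 6.86 per Mb over all windows, and the MIR29A window kept 1 of its 3. The ratio of density to the list, 3.12, was 2.86 with windows widened by 50 kb, 4.08 with windows narrowed by 20 kb, 4.36 for peaks higher than the median and 3.34 with full chromosome spans. In alternatives chosen after seeing the data, it was 2.69 to 3.71 with each window left out in turn, lowest without MIR205HG, and 3.15 with intervals under 200 bp apart merged. Widening added 5 peaks, of heights 14 to 56. The share at a height of 40 or more was 0% without the MIR22HG window, so it rested on that peak. With each window left out in turn, the median height was 26.0 to 28.0 and the median width 657 to 700 bp. Grouping depended on the distance. Within 5 kb, 0% of members had a neighbouring summit. Joining at 5 kb gave 0 groups with 0 members, and joining at 25 kb gave 2 groups with 5 members, against 1 group with 3 members at 12500 bp. The last changes follow from the distances between the peaks. All values are limited by the lack of a replicate and of read counts.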

Other observations

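TEAD factors are known to recognise the letters GGAATG, and the RefSeq sequences of the loci were searched for them on both strands, a search chosen after the data had been seen. The MIR205 hairpin held 1 match, which lies in miR-205-5p at bases 6 to 11 and so overlaps the seed. It was the only match among the 8 hairpins searched, those of MIR21, MIR205, MIR100, MIRLET7A2, MIR125B1, MIR29A, MIR29B1 and MIR130A. The hairpin of MIR22 was not among those searched. Of 1562 human hairpins in the table, 3.97% hold a match. Of 9 promoters listed for VMP1, MIR205HG, MIR100HG and MIR22HG, each from 250 bases before to 50 after a start, 1 of the 6 for MIR100HG held a match, while 14% of all promoters do. The AP-1 letters TGANTCA were found in none of these promoters or hairpins, against 7.71% of all promoters and 2.5% of all hairpins. These are descriptions of letters in GRCh38 sequence, and no peak could be placed on them.

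Other peaks stood further outside the windows and are given as values only. Before the MIR22HG window, 168 to 179 kb away, stood a close row of 3 peaks with heights of 41, 39 and 14. Beyond the MIR205HG window, a pair 4768 bp apart had heights of 26 and 43. These peaks belong to no window by the rule used.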
